A study of Homo sapiens with 52 samples.

Results

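The regions described here are the parts of chromosome 22 that the BCR-ABL1 translocation separated in KBM7 cells, with the end of chromosome 9 that one of them received. The KBM7 line comes from a chronic myeloid leukaemia and is long established. Lamina contacts were mapped in single cells by DamID. In this assay the methyltransferase Dam, here fused to Lamin B1 of the nuclear lamina, marks adenines of DNA that comes close to it, and the enzyme DpnI then cuts the marked GATC sites. All cells belonged to 1 group, diploid KBM7 cells of clone 14 that carried the LaminB1 fusion. This group is 1 clone. Shield1, which stabilises the fusion protein, was given at 0.5 nM for 15 h before sorting, and only double-positive Fucci cells within the lowest 2% by size were taken. Neither untreated cells nor cells with unfused Dam were among those analysed here. The labels name 52 cells, and the 51 with a column were used.

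Each value was an observed over expected ratio (OE) for a 100 kb bin (hg19). Contact in a cell was called wherever OE reached 1. The members were the bins with a value on 2 joined sequences, 426 of the 26584 bins measured in the series. The first sequence, named 9:22 in the file, starts with chromosome 9 and continues with the chromosome 22 material distal to BCR. Its members were the 278 measured bins from position 133600001 onward. The second, named 22:9, starts with proximal chromosome 22, continues after the BCR-ABL1 join and ends with the tip of chromosome 9, and gave 148 members. On 22:9 the join was placed at position 23500001, where the bins of both joined sequences together hold every bin of chromosomes 9 and 22 once. That left 72 members of chromosome 22 material and 76 members of chromosome 9 material on 22:9. Positions count along the joined sequences, and no source used here says which bin holds each break or which bins hold BCR and ABL1.

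The Philadelphia chromosome, the 22:9 product, places the body of ABL1, a tyrosine kinase gene, behind the promoter and first exons of BCR, and the resulting fusion kinase drives chronic myeloid leukaemia. The lamina lines the inside of the nuclear envelope, and regions in contact with it are as a rule poor in genes and little transcribed. Chromosome 22 is known as a gene-rich chromosome that tends to lie in the nuclear interior.

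The RefSeq annotation of GRCh38.p14 was used for names, gene order and gene counts. In it, the named protein-coding genes next to BCR on the 22:9 side were IGLL5, RSPH14, GNAZ and RAB36. Those next to it on the 9:22 side were IGLL1, which encodes a part of the surrogate light chain of B cell precursors, DRICH1, RGL4 and ZNF70. On chromosome 9, ASS1, the argininosuccinate synthase gene, FUBP3, PRDM12 and EXOSC2 preceded ABL1 and so lie on 9:22. QRFP, FIBCD1, LAMC3 and AIF1L followed ABL1 and so lie on 22:9. The gene counts are on GRCh38.p14 and the bin counts on hg19, so values per bin mix builds. Beyond BCR, 346 protein-coding genes were listed for the 279 bins of chromosome 22 material on 9:22, or 1.24 per bin. From ABL1 to the end of chromosome 9, 146 genes were listed for 77 bins (1.90 per bin), against 632 genes for the 1336 bins (0.473 per bin) of the chromosome 9 stretch of 9:22. Chromosomes 17 and 19, used for comparison below, had 1.44 and 2.45 genes per bin, more than the chromosome 22 stretch of 9:22. Their contact shares were also higher than its share. Between the chromosome 9 stretches the order was opposite, with a share of 0.0258% on the denser one, on 22:9, and 34.7% on the other. Whether gene density bears on contact was not tested. On proximal chromosome 22, 105 genes were listed up to and including BCR. The 235 bins placed before the join may not hold BCR, and only the 72 measured bins among them carry data.

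The promoters of BCR and ABL1 are shown because BCR supplies the promoter of the fusion gene and because the assay reads GATC sites only. Both sequences are RefSeq's, on GRCh38.p14, and are windows of 300 bases, most of them upstream of the listed start, with GATC in capitals. The promoter of BCR lies at chr22:23180259-23180558, plus strand, and the one listed for ABL1 at chr9:130835004-130835303, plus strand, inside the gene body. These positions are on another build than the bins and cannot be set against bin positions. On which side of the break the ABL1 promoter lies was not determined.
BCR promoter: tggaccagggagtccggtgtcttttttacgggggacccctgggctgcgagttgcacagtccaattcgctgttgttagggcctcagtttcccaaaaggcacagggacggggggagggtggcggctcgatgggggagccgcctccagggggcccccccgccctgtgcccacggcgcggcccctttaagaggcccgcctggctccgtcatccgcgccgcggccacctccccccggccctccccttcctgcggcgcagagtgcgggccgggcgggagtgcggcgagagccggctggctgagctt
ABL1 promoter: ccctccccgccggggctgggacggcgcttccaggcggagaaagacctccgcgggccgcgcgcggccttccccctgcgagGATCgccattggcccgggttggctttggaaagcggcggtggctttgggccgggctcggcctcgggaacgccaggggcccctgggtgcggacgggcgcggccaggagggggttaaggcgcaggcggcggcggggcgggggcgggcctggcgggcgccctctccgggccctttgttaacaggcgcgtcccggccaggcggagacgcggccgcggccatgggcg
GATC reads the same on both strands. It occurred 1 time in the ABL1 window and 0 times in the BCR window, and 41.7% of the 35116 promoter windows of this length in the table hold it. The windows were rich in G and C, at 71.7% for BCR and 78.3% for ABL1, against a median of 58.7% over all windows.

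The deposited ratios resolve into whole reads for each bin and cell, divided by a whole expected number for the bin, and cells differed in depth, from 50978 reads in cell 9 to 316463 in cell 26. At an expected number of 316, the median over bins, an OE of 1 stood for 2.12 reads in cell 9 and for 13.2 in cell 26. Further, no label ties the 51 cells to different cultures, and they count as 1 sample. No test was therefore run, and SDs and counts of cells describe the spread between these cells.

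Both sequences were almost free of lamina contact. On the chromosome 22 stretch of 9:22, 0.882% ± 1.58 of the measured bins were in contact (SD over 51 cells). The lowest cell had 0%, the median cell 0.360% and the highest, cell 46, 6.47%. A total of 27 cells had contact in at least 1 of its bins and 24 had none. On 22:9 the share was 0.662% ± 0.870, with 0% in the lowest cell, 0.676% in the median cell and 4.05% in cell 36, and 22 cells had no contact. Over the whole series the share was 31.5% ± 3.56, and both sequences lay below the cell's own genome share in all 51 cells. Of the bins of the series, 38.7% were contacted in no cell. Among the members, 252 of the 278 bins on 9:22 (90.6%) and 137 of the 148 bins on 22:9 (92.6%) were contacted in no cell.

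The 2 sequences could not be ordered from all their bins. Their difference was 0.219 percentage points ± 1.59 (SD, n = 51), the stretch on 9:22 minus 22:9, with 17 cells higher, 20 lower and 14 equal. It changed sign at an OE of at least 2 (-0.160 points) and in the odd-numbered cells (-0.109 points). It also rested on bins of unlike quality. On 22:9, 48 of the 50 contact calls (96.0%) lay in the 10 bins with an expected number under 100, and 42 of those 48 calls rested on 1 read and none on more than 2. On the stretch of 9:22, all 125 calls lay in bins with an expected number of at least 100. There the median call rested on 11 reads and 0 calls rested on 1 read. Over the series, 2.13% of bins had an expected number under 100.

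The expected number is unknown for bins without a read, so restricting it to at least 100 also removed 78 such bins on the 9:22 stretch and 55 on 22:9. Over the bins left, contact was higher on 9:22 than on 22:9 in 27 cells, lower in 0 and equal in 24. The share was 1.24% ± 2.22 (SD, n = 51) over 197 bins of the 9:22 stretch and 0.0472% ± 0.236 over 83 bins of 22:9, a difference of 1.20 points ± 2.08. Contact in at least 1 cell was found in 26 of these bins on the 9:22 stretch and in 2 on 22:9, against 65.7% of such bins over the series. The 22:9 bins held 1 call each. One was cell 12 in the bin from 17400001 to 17500000, with 11 reads and an OE of 1.66. The other was cell 46 in the bin from 27300001 to 27400000, with 14 reads and an OE of 1.18. The share of 22:9 over these bins was 0.0241% without cell 12.

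**Figure D1:**
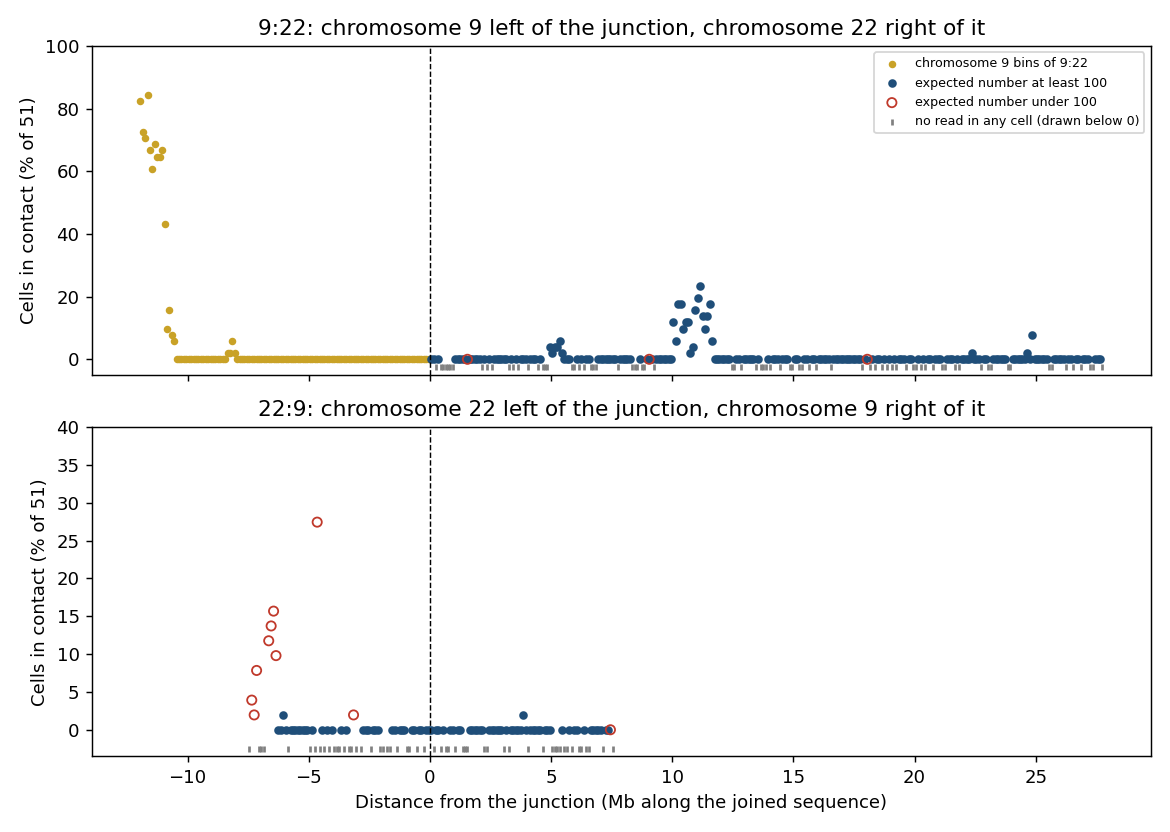
Percentage of the 51 cells in contact (vertical axis) for each 100 kb bin against its distance from the junction in Mb along the joined sequence, for 9:22 (upper panel) and 22:9 (lower panel, other vertical scale). On 9:22 contact is absent from 8 Mb before to 4.9 Mb after the junction and on the chromosome 22 side peaks at 23.5% of cells, 11.1 Mb after it, while on 22:9 all raised points but 2 at 1.96% are open red circles, bins with an expected number under 100. Ticks below 0 mark member bins without a read.

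The chromosome 22 material on 9:22 was in contact at a few places only. Adjoining bins contacted in at least 1 cell formed 5 stretches, defined after the values were seen, with 26 bins in all (9.35% of its bins, against 61.3% over the series). The longest covered 1.7 Mb, from 143600001 to 145300000, and began 10 Mb after the junction. It held 108 of the 125 contact calls (86.4%). A second stretch of 0.6 Mb, from 138500001 to 139100000, held 11 calls (8.80%). The other 6 calls lay in 3 single bins.

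In the longest stretch, 12.5% ± 22.4 (SD, n = 51) of the 17 bins were contacted, and 23 cells had contact in at least 1 bin. The share depended on the threshold, at 26.4% (35 cells) for an OE of at least 0.5 and 2.88% (7 cells) for an OE of at least 2. It was 6.35% in the odd-numbered cells and 18.3% in the even-numbered cells. The mean OE of the stretch was 0.381 ± 0.459, with 0 in the lowest cell, 0.204 in the median cell and 1.75 in the highest, cell 20. Its flanks, the 1 Mb on each side, had a mean OE of 0.0240. The bins next to the stretch are without contact by its definition, so part of this contrast was set in advance. On the stretch itself, at least 1 read was present in 50 of the 51 cells, with 2464 reads in its 17 bins. The 10.6 Mb run without contact that follows the stretch is longer, at 106 bins, and held 317 reads. There 9 cells lacked a read. Most cells had little or no contact and a few had much. No bin was contacted in 28 cells, 1 bin in 9, and at least 50% of the bins in 5. Cells 12 and 20 had 14 contacted bins each, cell 46 had 12, and cells 24 and 41 had 10 each. In no cell was the whole stretch contacted. The longest unbroken contact in a single cell was 1.3 Mb in cell 20, from 143600001 to 144900000, with 217 reads and a mean OE of 1.99.

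The bin contacted most often on this material lay from 144700001 to 144800000, 11.1 Mb after the junction. It was contacted in 12 of 51 cells (23.5%, 95% Wilson interval 14.0% to 36.8%, which covers counting error only). Its OE was 0 in the lowest cell, 0.279 in the median cell and 4.92 in cell 48. It was the only bin of the stretch of 9:22 contacted in at least 20% of cells, a frequency reached by 42.9% of the bins of the series. The bin before it was contacted in 10 cells (19.6%). Next came 3 bins at 9 cells each (17.6%), from 143800001 to 143900000, from 143900001 to 144000000 and from 145100001 to 145200000. Only 6 bins of this material reached 20% in the even-numbered cells, 0 in the odd-numbered cells, and 12 when the threshold was lowered to 0.5. No member of any stretch was contacted in at least 80% of cells, which 20.9% of the bins of the series were.

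Contact was uneven within the longest stretch. Its least contacted bins, a pair chosen after the values were seen, were those from 144300001 to 144500000 and were contacted in 1 and 2 cells, with mean OE of 0.162 and 0.208. The mean OE of the bin from 143700001 to 143800000, contacted in 3 cells, was 0.175, also that low. The expected numbers of the pair (387 and 325) lay within the range of the other bins of the stretch (292 to 428). The 7 bins before this pair were contacted in 3 to 9 cells each, and the 8 bins after it in 3 to 12. Contact before the pair occurred in 16 of all 51 cells and contact after it in 18 of all 51. Both sides were contacted in 11 cells, which are 68.8% of the first set and 61.1% of the second. Over the 51 cells, Pearson's r between the mean OE of the stretch and a cell's total contact was 0.185 and Spearman's rho was 0.239, and leaving out the 2 cells of most extreme total contact gave an r of 0.176. Against a cell's reads, r was 0.110 and rho 0.220, and r became 0.218 once the 2 most extreme cells were dropped. Against the contact share of the chromosome 9 stretch of the same joined sequence, r was 0.358 and rho 0.414, and 0.341 was the r with its 2 most extreme cells dropped. These are descriptions over cells that count as 1 sample, and each pair of values comes from the same library and depth.

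**Figure D2:**
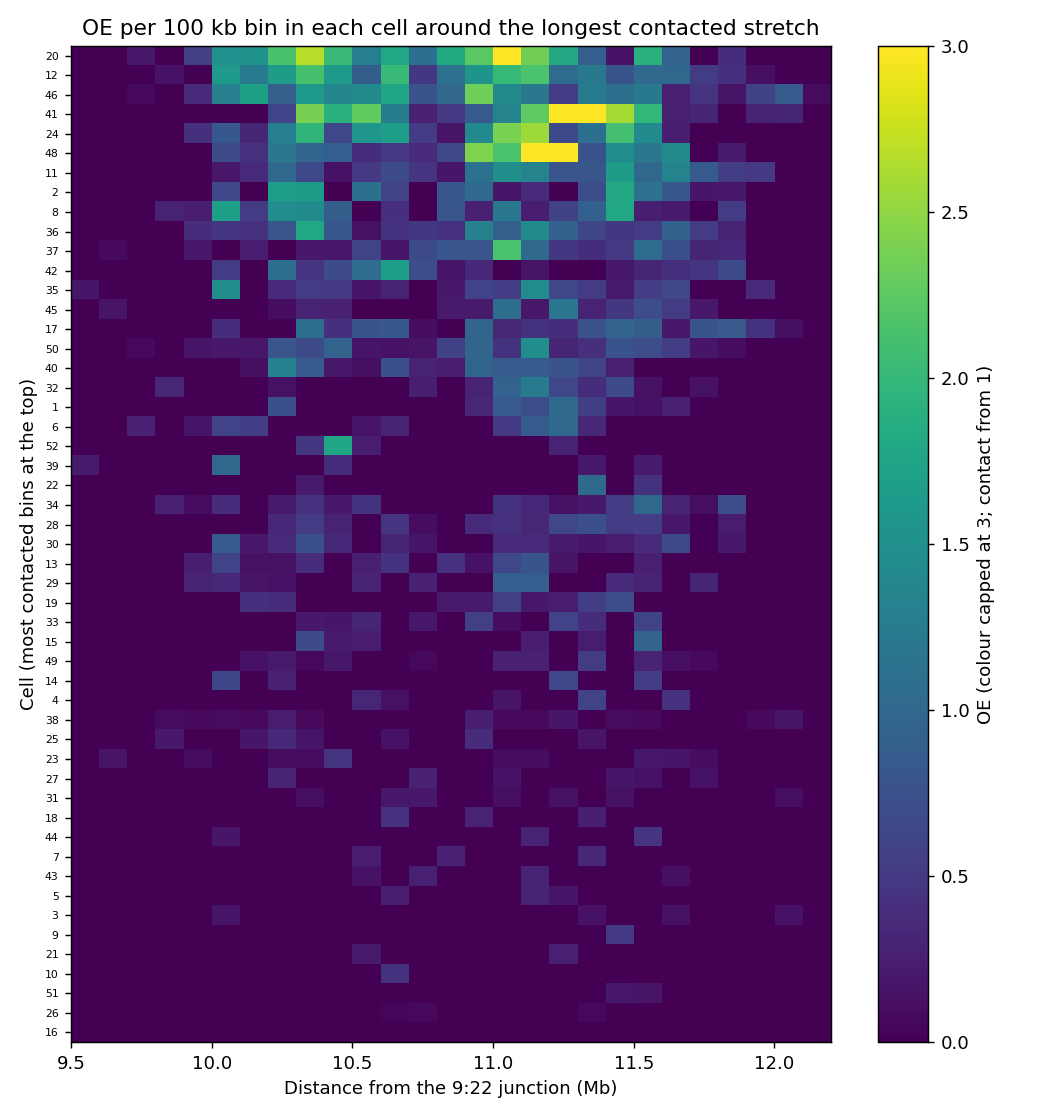
OE of each 100 kb bin (columns, by distance from the 9:22 junction in Mb, with 5 bins added on each side of the stretch) in each of the 51 cells (rows, those with most contacted bins at the top). The colour runs from 0 to a cap of 3, and contact starts at 1. Signal is strong in few cells and weak or 0 in the lower rows, and uneven along the stretch.

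The second stretch was contacted in 4 cells and rested mainly on 1 of them. Cell 46 was in contact over all 6 bins and cell 2 over 3, while cells 15 and 29 had 1 contacted bin each. The mean contact of the stretch was 3.59% ± 15.7 (SD, n = 51), and 1.67% without cell 46. Its mean OE was 0.126 ± 0.316, with 0 in the lowest cell, 0.0235 in the median cell and 2.00 in cell 46. Of these 4 cells, 2 also had contact in the longest stretch, cells 2 and 46, which are 50.0% of the 4 and 8.70% of the 23 cells with contact there. Of all 51 cells, 23 had contact in the longest stretch and 4 in the second, so this overlap does not show joint contact. Of the single bins, the one from 158400001 to 158500000 was contacted in 4 cells (7.84%), with a highest OE of 1.74 in cell 13. The bins from 155900001 to 156000000 and from 158200001 to 158300000 were contacted in 1 cell each, cells 30 and 24.

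Between these stretches contact was absent, as their definition requires. The longest run of bins without contact in any cell on this material covered 10.6 Mb, from 145300001 to 155900000. It held 317 reads in all cells together, its highest OE in any bin and cell was 0.851, and 33 of its 106 bins had no read. A count of 0 in 51 cells still permits contact calls in up to 5.88% of cells by the limit of 3 counts. The 95% Wilson interval for the same count reaches 7.00%. In the last 2 Mb window, from 26 Mb after the junction, no cell had contact in its 18 bins. This was not particular to the end. The windows from 0 to 4 Mb, from 6 to 10 Mb and from 12 to 22 Mb after the junction had no contact either.

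The gene names of the contacted stretches were not assigned, since an annotation on hg19 was not used here.

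On 22:9, calls lay almost wholly in bins with a low expected number. The chromosome 22 stretch of 22:9 was contacted in 1.33% ± 1.73 (SD, n = 51) of its bins, with 0% in the lowest cell, 1.39% in the median cell and 8.33% in cell 36. The bin from 18800001 to 18900000 was contacted in 14 cells (27.5%, 95% Wilson interval 17.1% to 40.9%), the highest frequency of any member. Its expected number was 30, so an OE of 1 corresponded to 0.557 reads in a cell of median depth factor, and 13 of its 14 calls rested on 1 read. The next bins by frequency lay together from 16800001 to 17200000, with 5 to 8 cells each. Their expected numbers were 14 to 64, and they held 40 reads in all. The longest single-cell run there, 0.4 Mb in cell 36, rested on 5 reads. After all cells were thinned to 50978 reads, 0 bins of this stretch reached 20% of cells. Only 72 of its 235 bins in the file had a value.

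**Figure D3:**
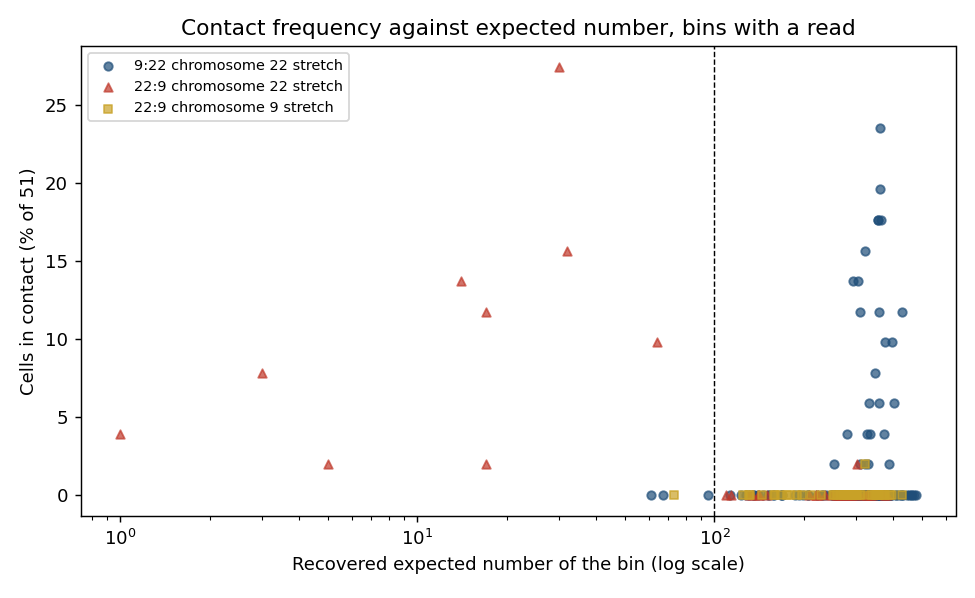
Percentage of the 51 cells in contact (vertical axis) against the recovered expected number of the bin (horizontal axis, log scale) for member bins with a read. The dashed line marks 100. Contacted bins of 22:9 (triangles and squares) lie to the left of it but for 2 at 1.96% of cells, and contacted bins of the 9:22 stretch (circles) lie between 253 and 428.

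The chromosome 9 stretch of 22:9, the bins placed after the join, had the lowest share of the members' stretches over all measured bins. Only 1 of its 76 bins was contacted, in cell 46, which gave a share of 0.0258% ± 0.184 (SD, n = 51) and 0% without that cell. The chromosome 9 material before the break had more contact as a whole, though not beside the break. No bin of it from 125600001 up to the 9:22 junction was contacted in any cell. The chromosome 9 stretch of 9:22 was contacted in 34.7% ± 6.10 of 1072 bins, and the chromosome 22 material joined to it was lower in all 51 cells, by -33.8 points ± 5.73. Within 22:9, the chromosome 22 stretch exceeded the chromosome 9 stretch by 1.31 points ± 1.70 and was higher in 29 cells, lower in 0 and equal in 22. All but 1 of the 49 calls behind that lay in bins with an expected number under 100. Over bins with an expected number of at least 100, the chromosome 22 stretch of 22:9 had 1 call in 35 bins. The chromosome 9 stretch of 22:9 had 1 call in 48, too few to order them.

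**Figure D4:**
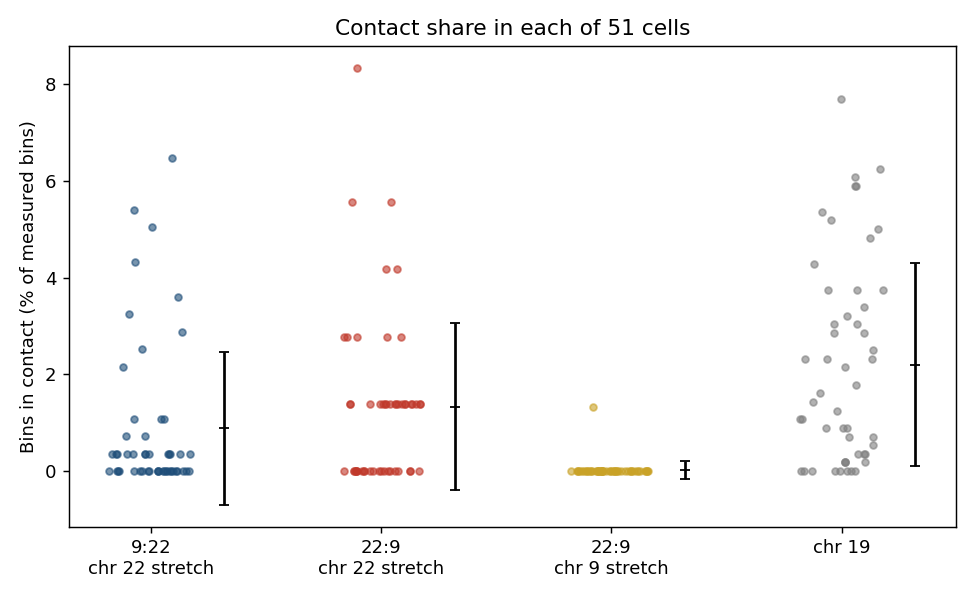
Percentage of measured bins in contact (vertical axis) in each of the 51 cells (points, spread sideways for sight) for the members' stretches and for chromosome 19, with the mean and SD over cells as a bar beside each. On the chromosome 9 stretch of 22:9, 50 cells lie at 0%, and on the chromosome 22 stretch of 9:22 the highest cell reaches 6.47%.

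No contact was called beside either junction. In the 1 Mb before and the 1 Mb after the 9:22 junction, 0 of 51 cells had a contacted bin, and the same held at the 22:9 junction. Of all positions with 20 measured bins around them, 11.8% had no contact on both sides either. On 9:22 the bins without contact extended over 12.9 Mb, from 125600001 to 138500000, which is 8 Mb of chromosome 9 material and 4.9 Mb of chromosome 22 material. On 22:9 they extended over 5.6 Mb, from 21700001 to 27300000, with 1.8 Mb before and 3.8 Mb after the junction. That run begins after a bin without a value, and the nearest contacted bin before it, from 20300001 to 20400000, was contacted in 1 cell and had an expected number of 17.

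Below the contact threshold, signal beside the junctions was low on both sides. At the 9:22 junction the mean OE was 0.00142 ± 0.00496 (SD, n = 51) over the 1 Mb of chromosome 22 after it and 0.00555 ± 0.0151 over the 1 Mb of chromosome 9 before it. These rested on 5 and 17 reads in all cells together. At the 22:9 junction the mean OE was 0.00735 ± 0.0158 over the 1 Mb of chromosome 9 after it and 0.00453 ± 0.0102 over the 1 Mb of chromosome 22 before it, on 27 and 18 reads. The 22:9 difference turned with the placing of the junction. The bin from 23500001 to 23600000 holds 15 of the 27 reads after it, and with the junction 1 bin later the mean OE was 0.00347 after it and 0.00841 before it. At 9:22 the side after the junction was lower with it 1 bin earlier, 1 bin later or 2 bins later as well. The order there turned with the window, however. Mean OE was 0.00459 after and 0.00381 before over windows of 2 Mb. Over windows of 5 Mb it was 0.00577 after and 0.00474 before. Both differences were smaller than their SD over cells (-0.00413 ± 0.0162 at 9:22 and 0.00281 ± 0.0160 at 22:9, after minus before). Positions with a mean OE over both sides at or below that of the 9:22 junction made up 0.743% of the series, and at or below that of the 22:9 junction 4.56%.

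Of the 20 bins around the 9:22 junction 12 had no read, and of those around the 22:9 junction 8. The first bin after the 22:9 junction, from 23500001 to 23600000, stood out among them with 15 reads in 9 cells, against at most 6 reads in any other of the 20. Its expected number was 348, its highest OE 0.543, in cell 10, and no cell had more than 3 reads in it. Since the break may lie 1 or 2 bins off, whether this bin is chromosome 9 or chromosome 22 sequence is not settled.

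**Figure D5:**
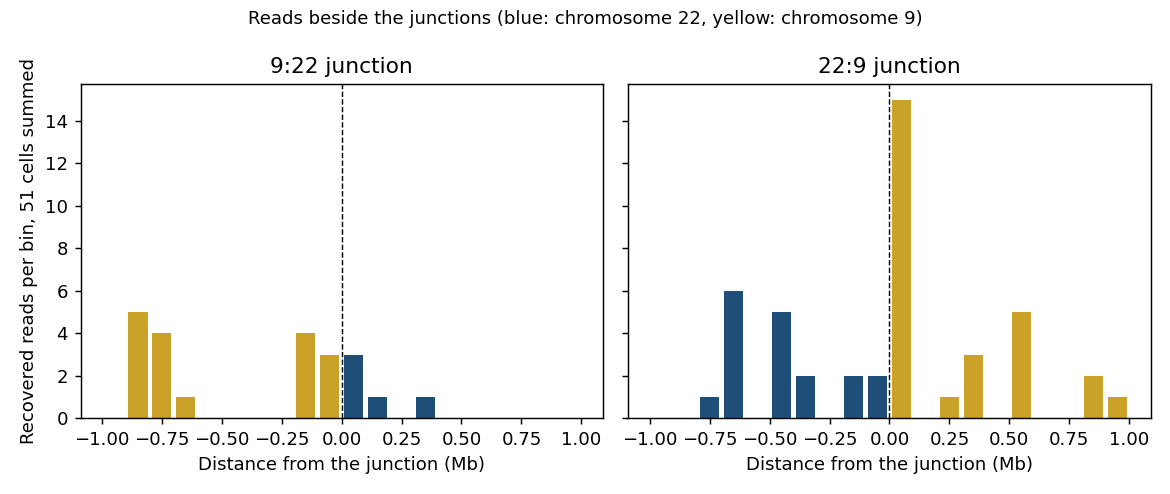
Recovered reads per 100 kb bin summed over the 51 cells (vertical axis) against distance from the junction in Mb, for 9:22 (left) and 22:9 (right), with chromosome 22 bins in blue and chromosome 9 bins in yellow. Bins hold 0 to 5 reads at 9:22 and 0 to 15 at 22:9, where the first bin after the junction is the highest.

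Bins without any read were common on both sequences. They made up 28.1% of the bins on the 9:22 stretch (78 of 278) and 37.2% on 22:9 (55 of 148), against 7.47% over the series. Their expected number is unknown. Among bins contacted in no cell, those without a read were 31.0% on the 9:22 stretch and 40.1% on 22:9, against 24.5% on chromosome 19 and 19.3% over the series. The mean OE of bins contacted in no cell was 0.00837 ± 0.00865 (SD, n = 51) on the 9:22 stretch and 0.00665 ± 0.0106 on 22:9, against 0.00972 ± 0.0131 on chromosome 19 and 0.0198 ± 0.0145 over the series. These bins were chosen by their calls, so the values are a description.

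Chromosome 19 was another sequence of low contact, with a mean share above those of the 9:22 stretch and of 22:9. Its share of bins in contact averaged 2.20%, with 0% in the lowest cell, 1.61% in the median cell and 7.68% in cell 26. The stretch of 9:22 differed from it by -1.32 points ± 2.41 and was lower in 35 cells, higher in 12 and equal in 4. The difference was smaller than its spread between cells, which does not measure the error of the mean. Over bins with an expected number of at least 100 it was -1.11 points ± 2.96. The sequence 22:9 differed from chromosome 19 by -1.54 points ± 2.06, with 37 cells lower, 10 higher and 4 equal. This difference, too, was smaller than its spread between cells. Over bins with an expected number of at least 100, 22:9 had 2 calls and a share of 0.0472%, and chromosome 19 had 505 calls and a share of 2.35%. The stretch of 9:22 had 1 of 278 measured bins at 20% of cells or more, and chromosome 19 had 27 of 560, against 42.9% of bins over the series. From chromosome 17, at 9.54%, the stretch of 9:22 differed by -8.66 points ± 3.71 and was lower in all 51 cells.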

How the data were processed

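The deposited values are the authors' ratios of observed to expected signal, 1 column per cell, as the file's name gives it. Cutadapt and Bowtie2 2.1.0 with hg19 were used, per the submitters' processing notes. What the expected signal was made from, how duplicates were treated and why 3792 of 30376 bins hold no value is not given in the sources used here. Cell 47 was not analysed here. Whole reads and an expected number per bin were recovered from the ratios: 100% of values above 0 came out whole within 0.02 reads. For bins of few reads the expected number is the smallest that gives whole reads. On simulated data over 23543 bins, 99.997% of values above 0 were recovered. Contact was an OE of at least 1. Bins with at least 100 expected, OE thresholds of 0.5 and 2, thinned cells, cell subsets, other windows and shifted junctions were alternatives. Named bins were the 5 of highest frequency per stretch, runs of at least 20% of cells, the longest run without contact and those within 1 Mb of a junction; the 5 contacted stretches were defined after seeing the values. The members, lists and rules were chosen with earlier results of these data known. Wilson intervals (95%) and the limit of 3 counts treat cells as independent and cover counting error only. Python 3.11.15, numpy 2.4.6, pandas 2.3.3 and scipy 1.17.1 were used. One result on gene order is not reported here.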

Additional observations from a re-analysis of the deposited data

How the results depend on the processing

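Of 138 values under alternatives, 115 stayed within 1 SD over cells or, for counts, within 1.5 times. The SDs exceed the mean shares, so this allows large moves. Some of the 115 were also fixed in advance. The steps across the junctions could only stay at 0 with a higher threshold, fewer bins, fewer cells or a narrower window. On the chromosome 9 stretch of 22:9, the count of bins at 20% of cells could only stay at 0 with a higher threshold, fewer bins or these subsets of cells. The share of the 9:22 stretch was 2.07% at an OE of at least 0.5, 0.197% at an OE of at least 2, and 0.432% and 1.31% in the odd-numbered and even-numbered cells. That of 22:9 was 1.14%, 0.358%, 0.541% and 0.780% in the same order. The difference between the chromosome 22 stretch of 9:22 and 22:9 reversed, to -0.160 points at an OE of at least 2 and to -0.109 in the odd-numbered cells (the cause was not tested). Its difference from the chromosome 9 stretch of 9:22 was -40.3 points at an OE of at least 0.5 and -21.6 at an OE of at least 2, as follows from the threshold. The steps across the junctions, 0 points in the report, were -0.392 (9:22) and 0.392 (22:9) at an OE of at least 0.5, -0.196 and 0.196 after thinning to 50978 reads, and 0.0784 and -0.574 with windows of 5 Mb. Moving the junction by 1 or, chosen after seeing the data, 2 bins could only give 0, since no bin within reach was contacted; the mean OE, given in the report, is the measure that moved. Bins contacted in at least 20% of cells on the 9:22 stretch numbered 12 at an OE of at least 0.5, 0 at an OE of at least 2, 2 after thinning, and 0 and 6 in the odd-numbered and even-numbered cells. On the chromosome 22 stretch of 22:9 they numbered 2 at an OE of at least 0.5, and 0 at an OE of at least 2, with expected numbers of at least 100 and after thinning. Bins contacted in no cell on 22:9 fell to 34 on its chromosome 22 stretch both without bins that held no read and with expected numbers of at least 100, and to 48 and 47 on its chromosome 9 stretch, because fewer bins were used. Without the 5 cells with the largest share of reads in rarely contacted bins (3.85% to 4.98%), also chosen after seeing the data, no value moved beyond the spread or by over 1.5 times. With each cell left out in turn, likewise added later, the share was 0.770% to 0.899% on the 9:22 stretch and 0.595% to 0.676% on 22:9. No paired analysis was possible because there is 1 group and so no replicate numbers shared between groups; sequences were compared within each cell. Depth limits single-bin calls in cell 9 most, and bins with an expected number under 100 in every cell.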
